A study of Homo sapiens with 6 samples.

Results

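The HOX genes encode homeodomain transcription factors that lie side by side in clusters A, B, C and D and give cells of the embryo their position along the body axis. Within a cluster the genes with low numbers act towards the head and those with high numbers towards the tail, and genes of 1 number in different clusters are paralogues. HOX proteins bind DNA together with TALE homeodomain cofactors of the PBX and MEIS families, their clusters are held silent by Polycomb and opened by Trithorax complexes, and retinoic acid is a classical inducer. The adult forebrain carries little HOX RNA, while glioblastoma, an astrocytic brain tumor, can carry more.

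The HOX genes were followed in U373MG, a human glioblastoma cell line, after exposure for 24 hours to 1 of 3 tetrahydroisoquinoline alkaloids, each at its inhibitory concentration (IC50) for these cells. ET-770 was given at 4.83 nM, its derivative ET-770-DR at 1.70 nM, and RM (renieramycin M) at 3.10 nM, and each compound had its own culture with the solvent, dimethyl sulfoxide (DMSO), at an equal volume. All cultures were kept in the same serum-containing medium. RNA of each of the 6 cultures was read by 1 Human Gene 1.0 ST array, so the 3 experiments gave 3 compound arrays and 3 DMSO arrays, and the doses differed between compounds. Members were all genes whose symbol was HOX, a cluster letter and a number, and which had a probe annotated with that symbol alone. There were 27 such genes among 18417 genes in all, each read by 1 probe: HOXA2, 10 HOXB genes (HOXB1 to HOXB9 and HOXB13), 7 HOXC genes (HOXC5 and HOXC8 to HOXC13) and 9 HOXD genes (HOXD1, HOXD3, HOXD4 and HOXD8 to HOXD13). Other HOXA genes were not analysed here, and HOXC4 and HOXC6, which shared a probe, were set apart.

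The arrays differed in scale between experiments. The median log2 signal over all genes was 7.92 on the ET-770 array and 7.97 on its DMSO array, 7.22 on the ET-770-DR array and 7.28 on its DMSO array, and 7.41 on the RM array and 7.40 on its DMSO array. Each compound was therefore set against the DMSO array of its own experiment. Of the astroglial markers, VIM, an intermediate filament of astrocytes and many other cells, had log2 signals of 13.26, 12.72 and 13.25 with ET-770, ET-770-DR and RM, and 13.37, 12.91 and 13.56 on their DMSO arrays, while GFAP, the astrocytic filament, had 7.63, 6.98 and 6.66 with the compounds and 7.72, 7.33 and 6.96 with DMSO.

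Promoter windows of 4 members are shown because they span the results below. HOXC5 had the largest change, HOXD11 the most even one, and HOXB1 and HOXA2 had mean changes below 0. Each window runs from 250 bases before to 50 bases after the RefSeq start of the gene (GRCh38.p14), 5′ to 3′ on the gene's strand, with every TAAT, the core that homeodomains bind, in capitals on either strand (TAAT or ATTA). The windows are HOXC5 at chr12:54016638-54016937 (plus strand), HOXD11 at chr2:176107030-176107329 (plus strand), HOXB1 at chr17:48530962-48531261 (minus strand) and HOXA2 at chr7:27102634-27102933 (minus strand).
HOXC5: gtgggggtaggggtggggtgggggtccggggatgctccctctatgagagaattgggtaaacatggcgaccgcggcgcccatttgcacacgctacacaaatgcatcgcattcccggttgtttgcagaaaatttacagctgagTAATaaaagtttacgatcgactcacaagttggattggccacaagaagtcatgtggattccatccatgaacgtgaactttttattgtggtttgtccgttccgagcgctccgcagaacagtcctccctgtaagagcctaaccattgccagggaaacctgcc
HOXD11: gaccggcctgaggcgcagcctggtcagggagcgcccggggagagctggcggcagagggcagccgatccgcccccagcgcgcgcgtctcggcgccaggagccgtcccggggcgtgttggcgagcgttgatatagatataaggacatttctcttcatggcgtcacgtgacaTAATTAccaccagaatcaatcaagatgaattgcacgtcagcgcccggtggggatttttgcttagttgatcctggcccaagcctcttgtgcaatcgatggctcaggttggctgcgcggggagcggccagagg
HOXB1: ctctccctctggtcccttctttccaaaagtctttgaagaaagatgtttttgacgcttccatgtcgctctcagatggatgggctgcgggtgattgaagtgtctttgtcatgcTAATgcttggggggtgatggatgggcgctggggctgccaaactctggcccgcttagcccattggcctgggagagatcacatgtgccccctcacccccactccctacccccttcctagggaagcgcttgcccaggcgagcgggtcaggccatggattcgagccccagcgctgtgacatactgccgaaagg
HOXA2: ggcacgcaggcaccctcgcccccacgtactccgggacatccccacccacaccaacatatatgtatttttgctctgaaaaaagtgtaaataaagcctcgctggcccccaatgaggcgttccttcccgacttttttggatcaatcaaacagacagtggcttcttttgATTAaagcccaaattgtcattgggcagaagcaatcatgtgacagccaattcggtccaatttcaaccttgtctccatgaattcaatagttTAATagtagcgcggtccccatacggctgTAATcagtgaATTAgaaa

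RefSeq windows were at hand for 11 of the 27 members, and the window of HOXC5 was letter for letter that of HOXC4, so it belongs to a start that both genes share. TAAT was found on either strand in 9 of the 11 windows, against 50.3% of 34796 windows of the same length over all genes, and CCAAT, a common promoter box, also in 9, against 34.6%. TGATTNAT, a form of the joint site of HOX and PBX proteins, was found in the HOXA2 and HOXD11 windows, against 2.82% of all windows, and in neither did it overlap a TAAT. Of the genes that rose, HOXC5 and HOXD11 alone had a window, and both windows held TAAT. So did the windows of HOXB1 and HOXA2, which did not rise. The windows of HOXD8 and HOXD13, which did not pass the test, held none. Most of the 11 windows were of cluster D. The member windows had a median of 23 CpG sites, against 14 over all windows, at a median GC content of 58%, against 58.7%.

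With the compounds, 6 of the 27 HOX genes rose and none fell. The genes that rose were HOXC5, HOXB9, HOXB7, HOXC9, HOXC13 and HOXD11, with mean changes of 0.39 to 1.68 on the log2 scale over the 3 experiments. HOXC5 and HOXB9 had changes over 1, and every remaining mean change was between −0.18 and 0.58. Changes were tested with limma on the whole table, blocking on the experiment and taking the 3 compounds as replicates of one another, and a gene was called at a Benjamini-Hochberg adjusted p under 0.05. The 6 that rose were 22.2% of the HOX genes, against 13.1% of all genes, and the 0 that fell stood against 11.2% of all genes. Of the 21 HOX genes not called, 3 had an unadjusted p under 0.05, and all 3 had positive changes. The share of all genes past that unadjusted threshold was not counted, so nothing is drawn from these 3. Because RNA was read from whole cultures of 1 cell line, a shift in the mix of its cells and a change in RNA per cell cannot be told apart.

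**Figure D1:**
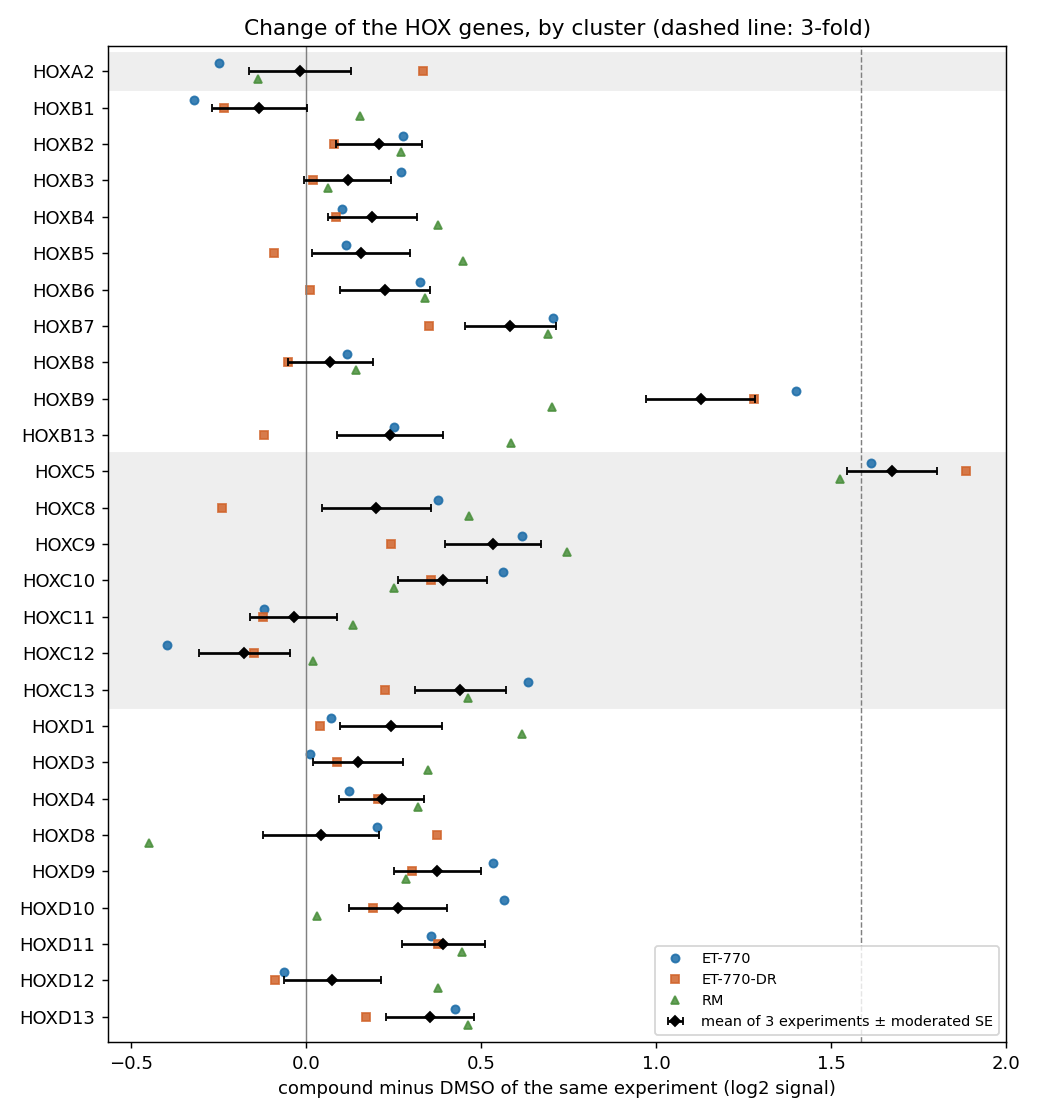
Change of the 27 HOX genes, compound minus DMSO of the same experiment in log2 signal on the x axis, with 1 colored mark per compound and a black diamond with the mean of 3 experiments ± moderated SE. HOXC5 and HOXB9 have the means farthest to the right, and the marks of the remaining genes lie between −0.45 and 0.74.

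HOXC5 (Entrez gene 3222), a central gene of cluster C, had the largest change. Its log2 signal was 8.02, 7.90 and 6.93 with ET-770, ET-770-DR and RM, and 6.40, 6.02 and 5.41 on their DMSO arrays. The lowest compound array was above the highest DMSO array. The folds were 3.06, 3.69 and 2.88, and the mean change was 1.68 ± 0.13 (moderated SE, n = 3 experiments, 95% interval 1.39 to 1.96, limma adjusted p = 2.74e-05). HOXC5 passed 3-fold with ET-770 and ET-770-DR and lay just under it with RM. No other HOX gene reached 3-fold with any compound.

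HOXB9 (Entrez gene 3219), a posterior gene of cluster B, followed. Its log2 signal was 9.30, 9.06 and 8.19 with ET-770, ET-770-DR and RM, and 7.90, 7.78 and 7.49 on their DMSO arrays. Here too compound and DMSO arrays did not overlap. The folds were 2.64, 2.43 and 1.63, and the mean change was 1.13 ± 0.16 (moderated SE, n = 3 experiments, limma adjusted p = 0.000704). HOXC5 and HOXB9 were 2 of 27 HOX genes (7.41%) with all compound arrays above all DMSO arrays, a pattern seen in 3.62% of all genes.

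The other 4 genes that rose did so by less, and their compound and DMSO arrays overlapped. HOXB7, separated from HOXB9 by HOXB8 alone, had 9.16, 7.71 and 9.41 with ET-770, ET-770-DR and RM, and 8.45, 7.36 and 8.72 with DMSO, with a mean change of 0.58 ± 0.13 (limma adjusted p = 0.00952). HOXC9, a posterior gene of cluster C, had 8.17, 7.53 and 7.51 with the compounds and 7.55, 7.29 and 6.76 with DMSO, with a mean change of 0.53 ± 0.14 (limma adjusted p = 0.0188). In both, the change with ET-770-DR, 1.28-fold for HOXB7 and 1.18-fold for HOXC9, was below those with ET-770 and RM, which ran from 1.53-fold to 1.68-fold. HOXC13, at the posterior end of cluster C and known for its part in hair and nail, had 8.55, 7.72 and 7.84 with the compounds and 7.92, 7.49 and 7.37 with DMSO, a mean change of 0.44 ± 0.13 (limma adjusted p = 0.0351). HOXD11, a posterior gene of cluster D that patterns the forearm, had 8.53, 7.86 and 7.76 with the compounds and 8.17, 7.48 and 7.31 with DMSO, a mean change of 0.39 ± 0.12 (limma adjusted p = 0.0393). Its 3 folds of 1.28, 1.30 and 1.36 had an SD of 0.05 on the log2 scale, the least of any HOX gene.

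**Figure D2:**
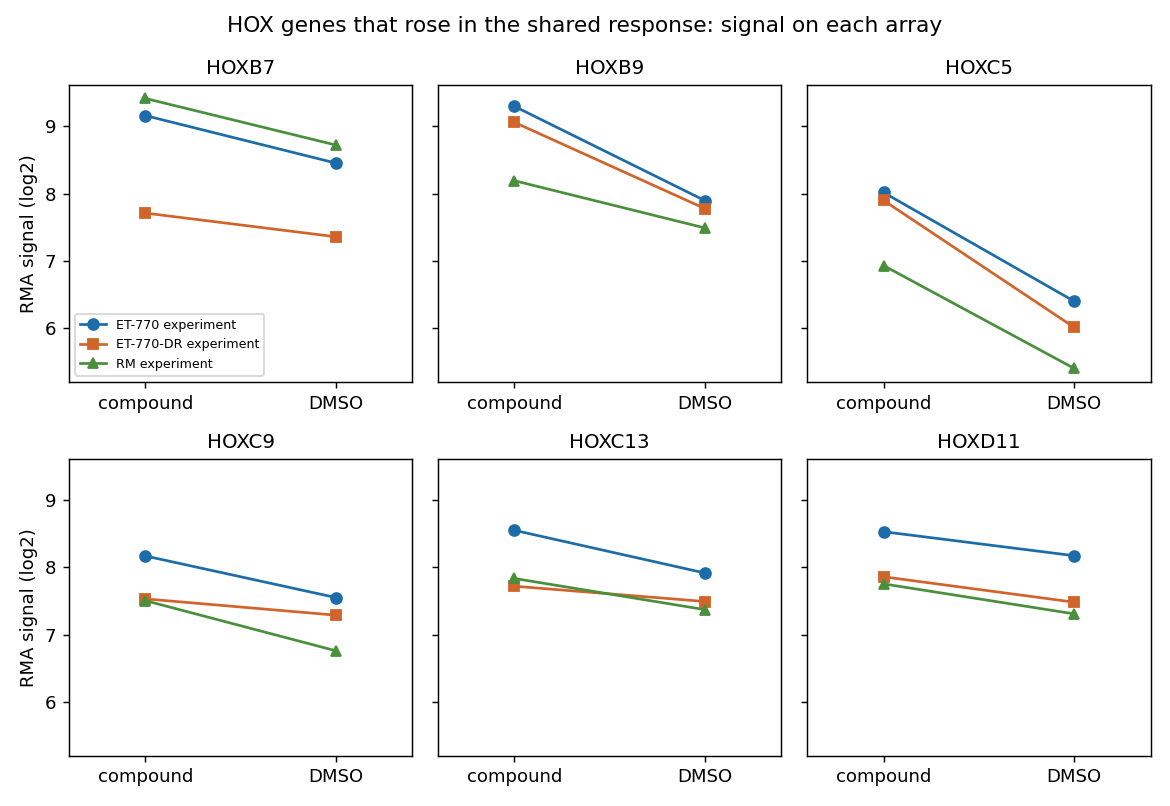
RMA log2 signal (y axis) of the 6 HOX genes that rose, with compound at the left and DMSO at the right and a line for each experiment. Every line falls to the right, and for HOXC5 the compound arrays lie at 6.93 to 8.02, all above the DMSO arrays at 5.41 to 6.40.

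The calls depended on the pairing of each compound with its own DMSO array and on which experiments were in the fit. Without the block, HOXC5 alone passed (limma, 1 of 27). Without the ET-770 experiment HOXC5 and HOXB9 passed, without ET-770-DR 5 passed (HOXD11 did not), and without RM 9 passed. Over all genes 1200 rose without ET-770, 1581 without ET-770-DR and 3506 without RM, against 2406 with all 3 experiments. The mean changes of the genes that lost their call without ET-770 were 0.52 for HOXB7, 0.49 for HOXC9, 0.34 for HOXC13 and 0.41 for HOXD11, against 0.58, 0.53, 0.44 and 0.39 over all 3. HOXC5 passed in all of these fits. Median centering and quantile normalization, which take out differences in scale between arrays, each gave 9.

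HOXC10, HOXD9 and HOXD13 came next. HOXD9, a posterior gene of cluster D, had 9.30, 8.28 and 8.18 with ET-770, ET-770-DR and RM, and 8.77, 7.97 and 7.90 with DMSO, a mean change of 0.37 ± 0.12 (limma adjusted p = 0.0555). HOXC10 had a mean change of 0.39 ± 0.13 (limma adjusted p = 0.0503) and HOXD13, the digit gene at the posterior end of its cluster, 0.35 ± 0.13 (limma adjusted p = 0.0728). All 3 were higher with each compound than in its DMSO culture, and none passed the test.

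The remaining genes had smaller mean changes. HOXA2, a hindbrain gene and the sole member of cluster A, had 6.60, 6.61 and 5.50 with ET-770, ET-770-DR and RM, and 6.85, 6.28 and 5.63 with DMSO. Its folds of 0.841, 1.26 and 0.910 went both ways, and the mean change of −0.02 had a 95% interval of −0.34 to 0.31. HOXC12 had the lowest mean change, −0.18 ± 0.13 (limma adjusted p = 0.432), with log2 signals of 6.70, 6.47 and 7.20 with the compounds and 7.10, 6.62 and 7.18 with DMSO. HOXB1, the most anterior gene of cluster B and active in the hindbrain, had −0.13 ± 0.14, with 7.20, 6.44 and 6.87 with the compounds and 7.52, 6.68 and 6.71 with DMSO. Both were lower with ET-770 and ET-770-DR and higher with RM than in their DMSO cultures, and neither passed the test. HOXC11 had a mean change of −0.04 ± 0.13. HOXD8 had folds of 1.15 and 1.30 with ET-770 and ET-770-DR and of 0.733 with RM, the widest spread among the HOX genes (SD of the log2 changes 0.43).

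All other members had positive mean changes that did not pass the test. HOXB2 to HOXB6, which act in the hindbrain and the neck and chest region, had mean log2 changes between 0.12 (HOXB3) and 0.23 (HOXB6), with SEs of 0.12 to 0.14. HOXB13, the posterior end gene of cluster B and known from prostate, had 0.24 ± 0.15, with folds of 1.19, 0.919 and 1.502 in the ET-770, ET-770-DR and RM experiments. HOXC8, a chest-level gene, had folds of 1.30, 0.847 and 1.38 in the same order. Both were thus higher in 2 of 3 experiments, with ET-770-DR on the other side of DMSO. In cluster D, HOXD1 (0.24 ± 0.15) was close to its DMSO level with ET-770 and ET-770-DR (1.05-fold and 1.03-fold) and at 1.53-fold with RM. HOXD10, a limb and spinal cord gene, had 9.76, 8.98 and 7.78 with the compounds and 9.19, 8.78 and 7.75 with DMSO, so that its folds of 1.48, 1.14 and 1.02 had the RM value lowest. HOXD3 (0.15 ± 0.13), HOXD4 (0.22 ± 0.12) and HOXD12 (0.08 ± 0.14) completed the cluster.

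By cluster, 3 of 7 HOXC genes rose (median of the mean changes 0.39), 2 of 10 HOXB genes (median 0.20), 1 of 9 HOXD genes (median 0.24) and not the 1 HOXA gene, against 13.1% and a median of 0.03 over all genes. The counts of clusters B and D were near that share. All 9 HOXD genes had positive mean changes, from 0.04 to 0.39, as did 9 HOXB genes and 5 HOXC genes. Over all genes, 10308 of 18417 had a positive mean change. Along the body axis, 0 of 6 anterior members (paralogue groups 1 to 3, median 0.13) rose, 2 of 9 central members (groups 4 to 8, median 0.20) and 4 of 12 posterior members (groups 9 to 13, median 0.36), to be read against the same 13.1% and 0.03. Neighbors of genes that rose did not all pass the test: HOXB8, between HOXB7 and HOXB9 on the chromosome, had a mean change of 0.07 ± 0.12 (limma adjusted p = 0.795), and HOXC12, next to HOXC13, had the lowest mean change of all. These divisions were described and not tested against one another.

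HOXC5 lies between HOXC4 and HOXC6, which 1 probe with both symbols reads. That probe was left out of the fit. Its log2 signal was 8.93, 7.90 and 7.79 with ET-770, ET-770-DR and RM, and 8.09, 7.51 and 7.05 with DMSO, which is 1.79, 1.31 and 1.67-fold. It was higher with every compound, at smaller folds than the HOXC5 probe, and transcripts that HOXC4, HOXC5 and HOXC6 share cannot be told apart by these probes.

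The compounds were also set side by side, each at its own dose and with 1 array per arm, which allows no test. In the ET-770, ET-770-DR and RM experiments the median log2 change of the 27 HOX genes was 0.27, 0.09 and 0.35, and that of all genes 0.02, −0.03 and 0.12. Each HOX median was above that of all genes. In the ET-770 experiment 22 HOX genes were higher than in the DMSO culture (81.5%, against 53.3% of all genes). The ET-770-DR experiment had 19 (70.4%, against 47%) and the RM experiment 25 (92.6%, against 62.4%). In all 3 experiments 17 were higher (63%, against 29.6% of all genes), and 0 were lower (against 20.6%). Most of the family was thus a little higher than in DMSO, and few genes were much higher. HOXC5 was the 1 HOX gene over 3-fold with ET-770 (against 0.233% of all genes) and the 1 with ET-770-DR (against 0.51%), and RM had 0 (against 0.0434%). Over 2-fold, the counts were 2, 2 and 1 in the ET-770, ET-770-DR and RM experiments, against 2.01%, 3.84% and 0.668% of all genes. No HOX gene was 3-fold or 2-fold lower with any compound. Over all genes, 2.15%, 2.12% and 1.36% were more than 3-fold lower and 4.68%, 4.94% and 4.28% more than 2-fold lower in the ET-770, ET-770-DR and RM experiments.

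**Figure D3:**
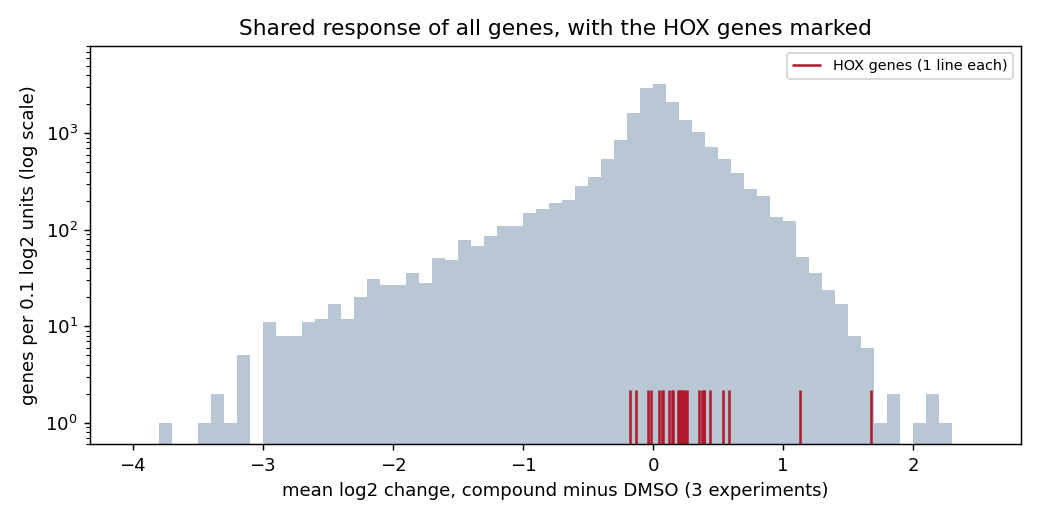
Mean log2 change of all 18417 genes (x axis, compound minus DMSO over 3 experiments) as a histogram with a log y axis of genes per bin, and 1 red line for each HOX gene. The HOX lines run from −0.18 to 1.68, and none lies in the long left tail of genes that fell.

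Signal strength moved with these values. When genes were split at the median over all genes of the mean log2 signal, 7.58, 11 HOX genes were above it on the mean of all 6 arrays and had median changes of 0.53, 0.23 and 0.45 with ET-770, ET-770-DR and RM, against 0.12, 0.15 and 0.06 for all genes above it. Of these 11, HOXD1, HOXD4 and HOXD13 were under the cut on the mean of their DMSO arrays, so the change itself helped to place them. The 16 HOX genes at or under it had 0.12, −0.02 and 0.34, against −0.03, −0.13 and 0.15 for all genes there. With RM, 69.8% of all genes at or under the cut were higher than in DMSO. Of the genes that rose, HOXC5 and HOXC9 were at or under the cut. The part of signal strength in the counts above was not tested.

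In the DMSO cultures the HOX genes differed between experiments about as much as other genes. After quantile normalization across the 6 arrays, the range over the 3 DMSO arrays had a median of 0.44 over the HOX genes (0.07 to 1.30) and of 0.51 over all genes. It was over 1 for 3 of 27 HOX genes, HOXD10 (1.30), HOXB7 (1.19) and HOXC8 (1.01), and for 3077 of 18417 genes in all. For HOXB7 this range was larger than its change with any compound.

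Genes most like HOXC5 over the 6 arrays, by Pearson's r of the log2 signals, were the zinc finger genes ZNF136, ZNF620 and ZNF682, the GABA receptor subunit gene GABRQ and PDRG1, all at r = 0.99. All shared the 6 arrays and their differences in scale. GABRQ had log2 changes of 2.10, 1.93 and 1.59 with ET-770, ET-770-DR and RM, above those of HOXC5 (1.61, 1.88 and 1.53).

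Of 8 TALE cofactor genes measured, 3 fell and 0 rose, against 11.2% and 13.1% of all genes. Their median change was −0.07, against 0.03 over all genes, and no further member had an unadjusted limma p under 0.05. PBX3, a PBX partner, had 9.16, 8.43 and 7.53 with ET-770, ET-770-DR and RM, and 10.37, 9.55 and 8.76 with DMSO, a mean change of −1.19 ± 0.12 (limma adjusted p = 0.000127). MEIS2 had 8.24, 7.57 and 7.26 with the compounds and 9.32, 8.80 and 8.67 with DMSO, a mean change of −1.24 ± 0.13 (limma adjusted p = 0.000136). In each experiment both were at less than 0.5-fold of their DMSO culture. MEIS1 had 7.41, 6.81 and 7.58 with the compounds and 8.28, 7.47 and 8.75 with DMSO, a mean change of −0.90 ± 0.14 (limma adjusted p = 0.00124). PBX4, MEIS3, PKNOX1, PKNOX2 and PBXIP1 had mean changes from −0.11 to 0.04 and did not pass the test. Without the block none of the 8 was called.

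**Figure D4:**
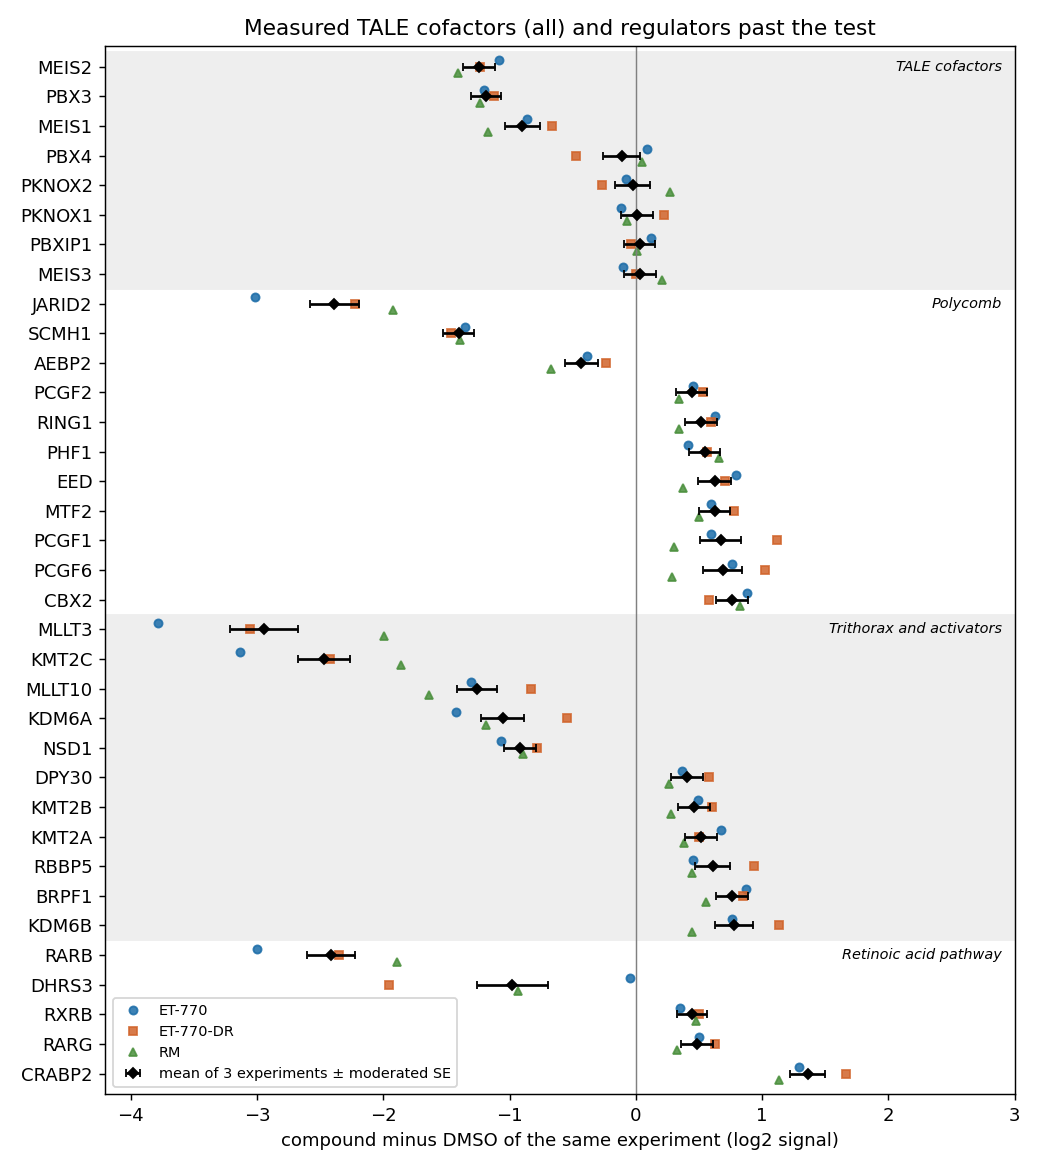
Change of the 8 measured TALE cofactor genes and of the Polycomb, Trithorax and retinoic acid genes past the test, compound minus DMSO in log2 signal (x axis), with 1 mark per compound and the mean of 3 experiments ± moderated SE. MEIS2, PBX3 and MEIS1 lie at −1.24 to −0.90, and MLLT3, at −2.95, is the farthest to the left.

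Among regulators of the clusters, genes went in both directions. Of 27 Polycomb genes 8 rose and 3 fell (median change 0.21), against 13.1% and 11.2% of all genes. The count that fell was near that share. JARID2, a DNA-binding partner of the PRC2 complex, fell to log2 signals of 7.19, 6.73 and 7.40 with ET-770, ET-770-DR and RM, against 10.21, 8.95 and 9.32 with DMSO (mean change −2.39 ± 0.19, limma adjusted p = 3.54e-05). SCMH1 fell as well (−1.40 ± 0.12), and CBX2, a chromobox subunit of PRC1, rose (0.76 ± 0.13). Of 23 Trithorax and related activator genes 6 rose and 5 fell (median change 0.20), against the same 13.1% and 11.2%. The 3 with the largest changes fell: MLLT3, a subunit of elongation complexes, with a mean log2 change of −2.95 ± 0.27 (limma adjusted p = 6.9e-05), KMT2C, a histone H3 methyltransferase, with −2.47 ± 0.21, and MLLT10 with −1.26 ± 0.16. KMT2A, the methyltransferase best known for keeping HOX genes active, rose by 0.52 ± 0.13 (limma adjusted p = 0.014).

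Of 16 genes of the retinoic acid pathway 3 rose and 2 fell (median change −0.03), against 13.1% and 11.2% of all genes. Both counts were near those shares. RARB, a retinoic acid receptor that is itself a retinoic acid target, fell to 6.43, 6.94 and 7.54 with ET-770, ET-770-DR and RM, against 9.44, 9.29 and 9.44 with DMSO (mean change −2.42 ± 0.19, limma adjusted p = 3.18e-05). CRABP2, which carries retinoic acid to the nucleus, rose to 8.53, 8.36 and 6.65 with the compounds, against 7.24, 6.70 and 5.52 with DMSO (1.36 ± 0.14, limma adjusted p = 0.000139). DHRS3, a retinaldehyde reductase, fell (−0.98 ± 0.28, limma adjusted p = 0.0308), with folds of 0.971 for ET-770, 0.258 for ET-770-DR and 0.523 for RM. Of 5 axial regulators measured, GDF11, a ligand that sets posterior HOX domains, rose (0.56 ± 0.12, limma adjusted p = 0.00861) and 0 fell. These counts are to be read against the same shares.

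Homeobox factors outside the clusters were compared as well. Of 26 that act in neural tissue 8 rose and 1 fell (median change 0.05), against 13.1% and 11.2% of all genes. DLX2, a forebrain factor, rose to 9.28, 8.33 and 8.02 with ET-770, ET-770-DR and RM, against 7.71, 7.09 and 7.17 with DMSO (1.22 ± 0.15, limma adjusted p = 0.00042), and LHX2 (1.08 ± 0.17) and SIX4 (1.02 ± 0.12) rose by similar amounts. Changes over 1 on the log2 scale were found in homeobox genes both in and outside the HOX clusters.

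Of 27 genes that flank the clusters 0 rose and 5 fell (median change −0.08), against 13.1% and 11.2% of all genes. At an unadjusted limma p under 0.05 there were 1 higher and 8 lower. The share of all genes at that unadjusted threshold was not counted. The 1 higher was HNRNPA1, an RNA-binding protein gene beside cluster C, at 2.18, 2.196 and 0.887-fold in the ET-770, ET-770-DR and RM experiments (0.70 ± 0.23, limma adjusted p = 0.0575), named after its values were seen. JAZF1, beside cluster A, fell to 6.56, 5.99 and 6.39 with ET-770, ET-770-DR and RM, against 8.62, 8.24 and 8.64 with DMSO (−2.19 ± 0.12, limma adjusted p = 7.66e-06). SKAP2 (−1.74 ± 0.16) and HIBADH (−1.003 ± 0.16), also near cluster A, fell with it. HOXA2, the member of that cluster measured here, had no change past the test.

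Of 6 noncoding genes inside the clusters 0 were called in either direction (median change 0.01), nor at an unadjusted limma p under 0.05. Over all genes 13.1% rose and 11.2% fell. The 6 noncoding genes include microRNA genes of known HOX-linked families. Mature sequences are shown with the seed (bases 2 to 8) in capitals, from RefSeq (GRCh38.p14).
hsa-miR-10a-5p: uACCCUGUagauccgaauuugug
hsa-miR-196a-5p: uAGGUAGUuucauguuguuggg

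The first comes from MIR10A, between HOXB4 and HOXB5, and the second from both MIR196A1, between HOXB9 and HOXB13, and MIR196A2, between HOXC9 and HOXC10, so that these 2 genes give 1 seed. The miR-196 family is known to repress HOX mRNAs, HOXB8 among them. MIR196A1 had log2 signals of 6.92, 5.55 and 6.17 with ET-770, ET-770-DR and RM, and 7.01, 5.54 and 6.17 with DMSO. MIR196A2 had 5.69, 5.01 and 5.20 with the compounds and 5.25, 5.06 and 4.85 with DMSO, a mean change of 0.25 ± 0.14 (limma adjusted p = 0.26). MIR10A had signals of 2.52 to 3.10 with the compounds and 2.63 to 3.27 with DMSO. The probes of these genes read the precursor and not the mature microRNA.

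Markers of several cell types fell in part. The counts below are to be read against 13.1% of all genes that rose and 11.2% that fell. Of 11 astroglial markers 5 fell (S100B, SOX9, FABP7, SLC1A3 and CD44) and 0 rose, and their summed linear signal was 24118, 15202 and 22691 with ET-770, ET-770-DR and RM, against 29299, 19560 and 32910 with DMSO. Of 7 neuronal markers MAP2 (−2.49 ± 0.13) and NEFL (−0.80 ± 0.13) fell and 0 rose, and the summed signal was 1365, 631 and 655 with the compounds, against 2657, 1231 and 1232 with DMSO. Of 6 fibroblast markers COL1A2 fell (−1.15 ± 0.18) and 0 rose, with sums of 1749, 638 and 3858 with the compounds, against 2441, 1328 and 7137 with DMSO. The astroglial, neuronal and fibroblast sums were thus lower with each compound. MAP2 and NEFL had the highest signals of the neuronal markers on every DMSO array and so weighed most in that sum. The other neuronal markers had mean changes from −0.42 to 0.115 and did not pass the test. In the astroglial sum VIM, which did not pass the test, and CD44 weighed most, joined by FABP7 in the RM experiment. COL1A2 had the highest signal of the fibroblast markers on every array and so weighed most in their sum. The other 5 fibroblast markers had mean changes from −0.10 to 0.09 and did not pass the test. Of 6 oligodendrocyte markers MBP fell (−0.43 ± 0.12). Of 6 endothelial markers 0 were called, nor had any an unadjusted limma p under 0.05, and of 7 microglial and leukocyte markers CD68 rose, a lysosomal protein made by many cells. The summed signal of these 7, of which CD68 had the highest, was 2748, 2048 and 1313 with ET-770, ET-770-DR and RM. With DMSO it was 2024, 1411 and 931, so it was higher with each compound. The oligodendrocyte and endothelial sums were lower with ET-770 and ET-770-DR and higher with RM. PTPRC, the marker all leukocytes share, had log2 signals of 3.69 to 4.09 with the compounds and 3.41 to 4.35 with DMSO. The part of these marker shifts in the HOX values was not tested.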

How the data were processed

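U373MG cells were exposed to ET-770, ET-770-DR, RM or DMSO, and each of 6 RNA samples was hybridized to 1 Human Gene 1.0 ST array. The authors normalized the arrays by the robust multiarray average (RMA) in Affymetrix Expression Console (version not given in the sources used here), and the deposited values are log2 signals per probe set. RMA compresses changes of dim probes towards 0.

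Of 33297 probes, 19460 carried 1 gene symbol in the platform annotation supplied, 1754 several and 12083 none. Probes with 1 symbol were averaged per gene (18417 genes), and all 27 HOX symbols matched the RefSeq gene table. Compound and DMSO arrays were paired as the labels state. As a check, deviations from the arm means correlated at r = 0.83, 0.69 and 0.82 within the 3 labelled pairs and at −0.68 to 0.24 between other arrays. Deviations sum to 0 within an arm, so positive values within pairs in part force lower ones between other arrays.

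The shared response was fitted with limma 3.58.1 (R 4.3.3), compound against DMSO with the experiment as a block, p-values two-sided and adjusted by Benjamini-Hochberg over all genes (threshold 0.05). Its replicates were 3 independent experiments with different compounds and doses, so the error includes differences between compounds. Single compounds, with 1 array per arm, were described by folds (more than 3-fold higher or lower, as in the methods of the study, and more than 2-fold) without a test. The number of arrays limits the precision. Sequences came from RefSeq tables and were handled in Python 3.11.15.

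Members and gene lists were chosen with earlier results of these data known. Values per array were given for HOX genes past the test or past a fold limit. They were also given for the members of each cluster with the largest mean changes. Of each other list except the cell type markers, mean changes were given for the 3 largest changes past the test. Some of these had values per array too. Values were also given for other genes chosen after their values were seen. The division by paralogue group and by signal was also chosen then. Alternatives were no block, median centering, quantile normalization, limma with trend and robust, another choice of probe, a filter that left out genes whose highest signal over the 6 arrays was at or under 7.58, each probe tested, each experiment left out, and the mean of the 3 DMSO arrays as control.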

Additional observations from a re-analysis of the deposited data

How the results depend on the processing

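The count of 6 HOX genes that rose was 6 with the brightest probe per gene and with each probe tested, 8 with limma's trend and robust options, 9 after median centering and after quantile normalization, and 1 without the replicate block (HOXC5). Leaving out 1 experiment gave 2 to 9, from fits in which 2 pairs remain. None fell in any of these fits. Over all genes, 26 rose and 369 fell without the block, against 2406 and 2065 with it. The all-gene counts that rose were 2786 with trend and robust, 2726 after median centering and 2538 after quantile normalization. They were 2398 with the brightest probe, and 2508 of 19460 with each probe tested. Leaving out ET-770, ET-770-DR or RM gave 1200, 1581 or 3506 that rose and 1505, 1871 or 2635 that fell. Without the block the other lists also lost most calls: 0 TALE cofactors fell, 0 Polycomb genes rose and 1 fell, 0 Trithorax genes rose and 2 fell, 0 retinoic acid genes rose and 1 fell, 0 axial regulators rose, 0 other homeobox genes rose and 0 fell, and 2 flanking genes fell. Mean changes near 0 changed sign. HOXA2 had 0.018 after centering, 0.029 after quantile normalization and −0.19 to 0.10 with 1 experiment left out. HOXC11 had 0.0001 after centering and −0.12 to 0.008 with 1 left out, HOXD8 −0.12 to 0.29 and HOXD12 −0.075 to 0.16. Set against the mean of all 3 DMSO arrays, which differ in scale, the median HOX change was 0.81, −0.050 and 0.023 in the ET-770, ET-770-DR and RM experiments, against 0.45, −0.25 and −0.13 over all genes under that control. There the HOXB7 fold for ET-770-DR was 0.724 and the HOXD9 fold for RM was 0.980. With genes left out whose highest signal was at or under 7.58, the median over the 17 members kept was 0.43 for ET-770 and 0.23 for ET-770-DR, against 0.09 and 0.10 over the genes kept. HOXB13, HOXC5 and HOXC9 passed that filter on compound arrays alone, so these values support nothing. At 2-fold in place of 3-fold, 2, 2 and 1 HOX genes were counted in the ET-770, ET-770-DR and RM experiments. The compounds had 1 array each, at different doses, so their differences could not be tested, and signals of dim probes are compressed.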
